A study of Mus musculus with 22 samples.

Results

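Fibroblast growth factor (FGF) ligands and FGF receptors were followed at the transcript level in mouse blastocysts and in stem cell lines of the first lineages. The genes were taken by symbol from the count table: the ligands Fgf4, Fgf5, Fgf10 and Fgf17 and the receptors Fgfr1, Fgfr2, Fgfr3 and Fgfr4, 8 of 21881 genes in all. RNA was sequenced from 8 single embryos at embryonic day 3.5 and from 7 Nanog wild-type cell lines, each line with 2 technical replicate libraries from different passages, which gave 22 libraries. The embryos were 4 Nanog knockouts (2 female, F1 and F2, and 2 male, M1 and M2), 2 heterozygotes and 2 wild types, with 1 female and 1 male in each of the last 2 groups. Nanog is a transcription factor gene of the pluripotent epiblast. The heterozygous and wild-type embryos together are called Nanog-bearing. The lines were 2 embryonic stem (ES) lines, F1 (female) and M2 (male), labelled as grown serum free and used as a model of the epiblast. They were joined by 3 trophoblast stem (TS) lines, F1, F2 and M3, a model of the trophectoderm, and by 2 extraembryonic endoderm (XEN) lines, M1 and M2, a model of the primitive endoderm. Both XEN lines are male, as are ES line M2 and TS line M3, while the other ES and TS lines are female. Sex was not a term in the fit of the lines, and its part in the comparisons with XEN lines was not tested. The labels name neither the mouse strain, the Nanog alleles nor the medium of the TS and XEN lines. Embryo RNA was amplified as cDNA before library preparation and line RNA was not, with different kits, and embryos were not compared with lines.

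FGFs are secreted growth factors that bind receptor tyrosine kinases together with heparan sulfate, and the receptors signal through adaptor proteins to RAS and the ERK kinases. In the mouse blastocyst FGF4 from the inner cell mass is known to drive primitive endoderm formation and to keep trophoblast stem cells dividing, with FGFR1 and FGFR2 as the receptors. FGF5 marks the epiblast after implantation, FGF17 belongs to the FGF8 subfamily, and FGF10 is best known as the ligand of the FGFR2 isoform of epithelia in limb and lung.

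RefSeq promoter sequences (build GRCm38.p6, a later build than that of the counts) were available for 6 of the 8 genes, at 7 starts. Those of 3 ligands that differed between lineages and of the receptor that led in XEN lines are shown as the 250 bases before the annotated start, 5′ to 3′ on the gene's strand, so that their base composition can be set beside the levels. They lie at chr7:144861136-144861385 (plus strand, Fgf4), chr5:98253934-98254183 (plus strand, Fgf5), chr13:118714449-118714698 (plus strand, Fgf10) and chr5:33722056-33722305 (plus strand, the downstream of both Fgfr3 starts), and no annotated exon falls inside them. Capitals mark matches to the motifs searched.
Fgf4: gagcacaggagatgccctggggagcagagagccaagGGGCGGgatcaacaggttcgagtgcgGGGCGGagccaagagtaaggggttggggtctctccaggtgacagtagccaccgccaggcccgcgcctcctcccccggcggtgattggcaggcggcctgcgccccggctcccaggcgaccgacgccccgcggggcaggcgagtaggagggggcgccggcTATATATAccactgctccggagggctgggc
Fgf5: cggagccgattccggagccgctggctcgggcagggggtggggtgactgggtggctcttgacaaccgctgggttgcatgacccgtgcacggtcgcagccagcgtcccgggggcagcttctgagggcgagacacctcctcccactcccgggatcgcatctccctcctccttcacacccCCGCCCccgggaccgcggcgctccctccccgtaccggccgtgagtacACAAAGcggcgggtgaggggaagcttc
Fgf10: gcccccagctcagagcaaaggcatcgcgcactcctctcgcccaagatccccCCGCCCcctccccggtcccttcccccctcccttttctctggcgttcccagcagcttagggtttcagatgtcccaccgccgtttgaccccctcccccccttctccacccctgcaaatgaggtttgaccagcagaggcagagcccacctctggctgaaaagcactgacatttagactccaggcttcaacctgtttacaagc
Fgfr3: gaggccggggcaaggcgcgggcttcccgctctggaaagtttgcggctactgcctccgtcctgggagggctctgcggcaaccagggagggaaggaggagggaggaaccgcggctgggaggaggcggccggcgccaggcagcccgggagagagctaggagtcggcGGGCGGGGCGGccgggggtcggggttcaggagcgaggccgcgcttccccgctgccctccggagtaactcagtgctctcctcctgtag

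The motifs were searched on both strands. They were the GC box with the letters GGGCGG, the TATA box as TATAAA and as the variant form TATATA, and the octamer written ATGCAAAT. Core letters of transcription factor families were also searched, namely AGATAA for the GATA family, GGAATG for the TEAD family and ACAAAG for the SOX family. The Fgf4 promoter held 2 GC boxes and, just before the start, the run TATATATA, in which 2 matches to TATATA overlap. Fgf5 held 1 GC box and 1 ACAAAG, Fgf10 held 1 GC box, and this Fgfr3 start held 2 GC boxes that share a base. Their GC content was 71.2% for Fgf4, 70.8% for Fgf5, 61.2% for Fgf10 and 72.8% for Fgfr3. Of 27025 promoters of the same length, 32.9% held GGGCGG, 13.0% TATAAA, 5.56% TATATA, 1.61% ATGCAAAT, 10.3% AGATAA, 12.6% GGAATG and 16.5% ACAAAG. These matches are a description of the letters.

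Depth, labels and purity were examined for the whole series first. Total counts per library, in mega-counts (M), were 16.4 to 21.9 M in null, 14.8 to 23.3 M in heterozygous and 23.6 to 32.2 M in wild-type embryos, and 8.20 to 9.55 M in ES, 9.97 to 16.5 M in TS and 12.7 to 23.7 M in XEN libraries. Nanog, the targeted gene, had 8 (F1), 7 (F2), 12 (M1) and 6 (M2) counts in the null embryos, against 2038 and 791 counts in the heterozygous and 3238 and 3456 counts in the wild-type female and male. Levels are given as CPM, counts per M of a library's total. The null libraries also lacked more genes: with at most 3 counts against a mean of 5 CPM or more in the rest, 570 genes were missing from F1, 300 from F2, 133 from M1 and 809 from M2, against 40 to 68 genes in the Nanog-bearing embryos. Marker lists matched the lines: summed ES markers reached 5908 to 7059 CPM in ES libraries against 120 to 882 CPM elsewhere among the lines, and summed XEN markers 3063 to 3991 CPM in XEN libraries against 5.96 to 54.0 CPM. Summed TS markers reached 1427 to 4398 CPM in TS libraries against 97.7 to 752 CPM. The TS libraries also held transcripts from 3 other marker lists. Differentiated trophoblast markers summed to 636 to 2568 CPM in TS libraries and to under 5 CPM in ES and XEN libraries, mostly as Hand1 (631 to 1773 CPM), while Prl3d1 was at 193 and 757 CPM in TS line M3 and at most 1.24 CPM in TS lines F1 and F2. Blood and macrophage markers summed to 38.2 to 124 CPM in TS libraries, against 7.33 to 25.6 CPM in ES and XEN libraries. They were mostly Csf1r and Cd68, while Ptprc had at most 1 count and Tyrobp at most 7 counts in a TS library. Lyz2 was at 25.6 CPM (266 counts) in the first library of TS line F2 and at most 1.4 CPM in the other TS libraries. Fibroblast markers summed to 10.2 to 219 CPM in TS libraries, against 0.158 to 11.1 CPM in ES and XEN libraries. Of these, Col1a1, Col1a2, Col3a1, Thy1 and Postn were detected in every TS library, but Dcn had 6 and 1 counts and Lum 1 count in TS line F2 and both were at 0 in the other TS lines. Col3a1, Dcn, Lum and Postn were at 0 in ES libraries, and Col3a1 and Lum in XEN libraries. The part of these transcripts in the TS values was not tested, other than by leaving out the library that held the most fibroblast markers.

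The first question was which lineage held the ligands. In ES lines all 4 ligands were detected, and all 4 were higher than in TS lines, a comparison in which 20.0% of all tested genes were higher in ES lines. Fgf4 stood far above the rest. XEN lines held Fgf10 and almost no Fgf4, Fgf5 or Fgf17, and TS lines held hardly any of the 4.

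**Figure D1:**
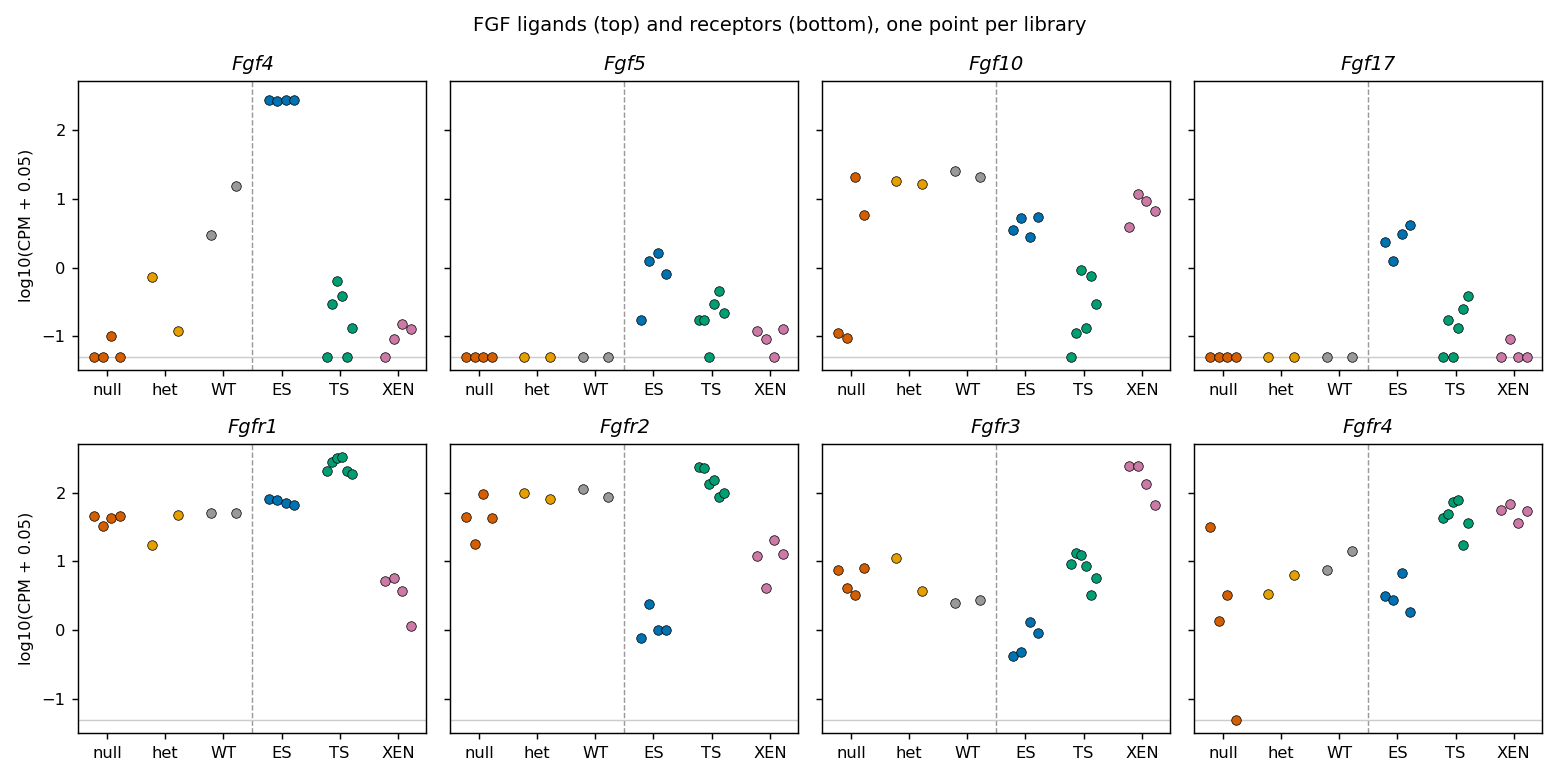
Level of each gene, as log10 of CPM plus 0.05, in every library, with ligands in the upper row and receptors in the lower row; the dashed line separates embryos (null, het for heterozygous, WT for wild type) from lines (ES, TS, XEN), whose libraries were made with different kits, and the grey line marks 0 counts. Fgf4 reached 263 to 276 CPM in all 4 ES libraries and at most 0.578 CPM in TS and 0.102 CPM in XEN libraries, whereas Fgfr3 was highest in XEN libraries and Fgfr1 and Fgfr2 in TS libraries.

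Fgf4, the growth factor of the epiblast, was at 266 and 272 CPM in ES lines F1 and M2, against 0.122, 0.444 and 0.0454 CPM in TS lines F1, F2 and M3 and 0.0266 and 0.0932 CPM in XEN lines M1 and M2. The other lineages' values rest on 4, 10 and 1 counts in the TS lines and on 1 and 3 counts in the XEN lines, while the ES lines together had 9793 counts. The lineages did not overlap between ES and the others, and TS and XEN lines overlapped. How many of all genes separate lineages or genotypes in this way was not counted, here or below. The log2 fold change was 10.33 for ES against TS (SE 0.55, edgeR adjusted p = 5.59e-05) and 11.75 for ES against XEN (SE 0.72, edgeR adjusted p = 5.55e-05). For TS against XEN it was 1.42 (SE 0.91, edgeR adjusted p = 0.254), which did not pass. In the authors' deposited table, which lists genes the authors regarded as regulated by Nanog, Fgf4 is the only one of the 8 genes, marked DOWN, at chr7:152047290-152051148 in build mm9.

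Fgf5 was low everywhere. It was at 0.689 and 1.16 CPM in ES lines F1 and M2, against 0.122, 0.133 and 0.272 CPM in TS lines F1, F2 and M3 and 0.0531 and 0.0311 CPM in XEN lines M1 and M2. ES lines lay above TS lines, and TS lines above XEN lines, without overlap between summed lines. Single libraries did overlap. The first library of ES line F1 had 1 count (0.122 CPM) and that of TS line M3 had 4 counts (0.401 CPM). The first library of TS line F2 had 0 counts, and both libraries of XEN line M1 had 1 count. The log2 fold change for ES against TS was 2.31 (SE 0.66, edgeR adjusted p = 0.0279), but the adjusted p was 0.105 with DESeq2 and 0.0536 with no filter on low counts. Leaving out ES line F1 or M2 or TS line F1 or F2 gave edgeR adjusted p-values of 0.108, 0.223, 0.0773 and 0.0760. For ES against XEN the counts were 34 and 3, a ratio of depth-scaled totals of 21.8 with a 95% exact counting interval from 6.85 to 111 (edgeR adjusted p = 0.00802). That call was lost without ES line M2 (edgeR adjusted p = 0.0686) and without XEN line M2 (edgeR adjusted p = 0.0555). The difference between TS and XEN lines did not pass (log2 fold change 1.66, SE 0.85, edgeR adjusted p = 0.165).

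Fgf17, a ligand of the FGF8 subfamily, was at 1.72 and 3.54 CPM in ES lines F1 and M2, against 0.0612, 0.0444 and 0.272 CPM in TS lines F1, F2 and M3. In XEN line M1 it was at 0.0266 CPM, a single count, and in XEN line M2 at 0. Every ES library held more than every TS or XEN library. It was higher in ES than in TS lines, with a log2 fold change of 4.29 (SE 0.89, edgeR adjusted p = 0.00841), and this call was lost without ES line M2 (edgeR adjusted p = 0.0755). Against XEN lines the totals were 97 counts and 1 count, a depth-scaled ratio of 186 with a 95% exact counting interval from 32.7 to 7437 (edgeR adjusted p = 0.00458). Counting intervals cover counting error only.

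Fgf10 was distributed differently from the other ligands. It was at 4.36 and 4.02 CPM in ES lines F1 and M2, against 0.0306, 0.444 and 0.454 CPM in TS lines F1, F2 and M3 and 8.87 and 8.30 CPM in XEN lines M1 and M2. XEN lines were the highest and TS lines the lowest, with no overlap between lines of different lineages. Single libraries of ES and XEN lines did overlap, as those of XEN line M1 gave 3.87 and 11.8 CPM and the 4 ES libraries 2.72 to 5.34 CPM. ES against TS gave a log2 fold change of 3.72 (SE 0.80, edgeR adjusted p = 0.00954) and TS against XEN one of -5.09 (SE 0.82, edgeR adjusted p = 0.00311). The first of these missed the threshold without ES line F1 (edgeR adjusted p = 0.0529). ES against XEN gave -1.37 (SE 0.80, edgeR adjusted p = 0.200), and passed with limma voom and quality weights (adjusted p = 0.0453) and without TS line F1 (edgeR adjusted p = 0.0352). Of the 21 counts in the TS lines, 9 came from the library of line F2 with the most fibroblast marker counts, and 1 from the other library of that line.

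The second question was which lineage held the receptors. Receptors were spread unequally over the lineages. TS lines held the most Fgfr1 and Fgfr2, XEN lines the most Fgfr3, and ES lines had little besides Fgfr1. Fgfr4 was about as high in TS as in XEN lines and low in ES lines.

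Fgfr1 was at 79.3 and 69.2 CPM in ES lines F1 and M2, against 242, 325 and 193 CPM in TS lines F1, F2 and M3 and 5.53 and 2.64 CPM in XEN lines M1 and M2. The order from TS through ES to XEN lines held without overlap. The log2 fold change was -1.83 for ES against TS (SE 0.34, edgeR adjusted p = 0.00537), 3.84 for ES against XEN (SE 0.39, edgeR adjusted p = 0.000383) and 5.67 for TS against XEN (SE 0.42, edgeR adjusted p = 0.000124). Only the ES against TS call depended on a single line, as the edgeR adjusted p was 0.0531 without ES line M2. Fgfr1 is known to be expressed in fibroblasts, so it was set beside the fibroblast collagen gene Col1a1. In TS line F1, Fgfr1 was at 205 CPM in the library with 1.82 CPM of Col1a1 and at 280 CPM in the library with 14.9 CPM. In TS line F2 it was at 318 CPM with 86.9 CPM of Col1a1 and at 331 CPM with 7.0 CPM, and in TS line M3 at 203 CPM with 37.9 CPM and at 185 CPM with 12.4 CPM. The library with more Col1a1 thus held more Fgfr1 in F1 and M3 and less in F2, and the part of fibroblasts in the TS level was not tested.

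Fgfr2, the receptor of the trophectoderm, was at 1.61 and 0.952 CPM in ES lines F1 and M2, against 232, 145 and 94.4 CPM in TS lines F1, F2 and M3 and 7.07 and 17.4 CPM in XEN lines M1 and M2. TS lines lay above XEN lines and XEN lines above ES lines, with no overlap. In log2 fold change, the difference was -6.99 for ES against TS (SE 0.67, edgeR adjusted p = 0.000466), -3.59 for ES against XEN (SE 0.61, edgeR adjusted p = 0.00301) and 3.40 for TS against XEN (SE 0.53, edgeR adjusted p = 0.00286). The counts are per gene, so the isoforms of Fgfr2 that bind different ligands were not separated.

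Fgfr3 was at 0.402 and 1.06 CPM in ES lines F1 and M2, against 11.1, 10.4 and 4.54 CPM in TS lines F1, F2 and M3 and 244 and 106 CPM in XEN lines M1 and M2. XEN lines were the highest and ES lines the lowest, again without overlap. The 2 XEN lines differed from each other, and within XEN line M2 the libraries gave 131 and 67.0 CPM. On the log2 scale the fold change was -3.60 for ES against TS (SE 0.63, edgeR adjusted p = 0.00432), -8.23 for ES against XEN (SE 0.74, edgeR adjusted p = 0.000230) and -4.62 for TS against XEN (SE 0.51, edgeR adjusted p = 0.000633).

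Fgfr4 was at 2.87 and 4.34 CPM in ES lines F1 and M2, against 45.6, 76.0 and 27.6 CPM in TS lines F1, F2 and M3 and 63.6 and 42.9 CPM in XEN lines M1 and M2. ES lines were below all others, and TS and XEN lines overlapped. Fgfr4 gave a log2 fold change of -3.83 for ES against TS (SE 0.48, edgeR adjusted p = 0.00119) and -4.22 for ES against XEN (SE 0.50, edgeR adjusted p = 0.000693). For TS against XEN it was -0.39 (SE 0.39, edgeR adjusted p = 0.464).

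**Figure D2:**
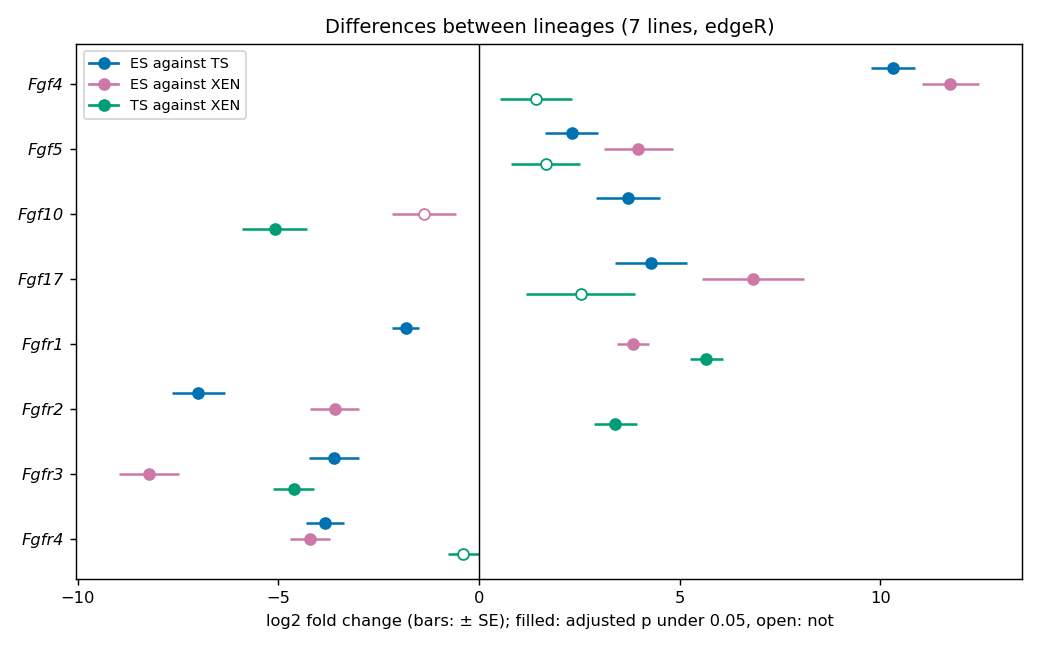
Log2 fold change between lineages for each gene, with bars of 1 SE, from the edgeR fit of 7 lines; filled points had an adjusted p under 0.05 and open points did not, and a positive value means higher in the lineage named first. All 4 ligands lay above 0 and all 4 receptors below 0 for ES against TS, from 10.33 for Fgf4 to -6.99 for Fgfr2.

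Over the 8 genes, 8 were called for ES against TS, with 4 ligands higher and 4 receptors lower in ES lines, where 41.3% of all 14687 tested genes were called (20.0% higher and 21.3% lower in ES lines). For ES against XEN, 7 were called against 45.1% of all tested genes (23.4% higher and 21.8% lower): Fgf4, Fgf5, Fgf17 and Fgfr1 higher, and Fgfr2, Fgfr3 and Fgfr4 lower in ES lines. For TS against XEN, 4 were called against 36.7% of all tested genes (20.3% higher and 16.4% lower): Fgfr1 and Fgfr2 higher, and Fgf10 and Fgfr3 lower in TS lines. The median log2 fold change of the 8 genes was 0.24, 1.24 and 1.54 in these 3 comparisons, beside -0.02, 0.05 and 0.02 over all tested genes. Each lineage enters 2 of the comparisons, so they share lines. Without ES line M2 only 5 of the 8 genes were called for ES against TS, as Fgf5, Fgf17 and Fgfr1 were lost.

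To compare levels between genes, CPM was divided by the length of the union of a gene's annotated exons in kilobases (kb). The summed level of the 4 receptors was 8.47 to 9.05 CPM per kb in ES lines, against 37.2 to 69.8 CPM per kb in TS lines and 28.9 to 53.3 CPM per kb in XEN lines. Fgfr1 made up 85.7% ± 4.24 of the receptor level per kb in ES lines (SD, n = 2) and 46.6% ± 6.38 in TS lines (n = 3). In XEN lines it made up 0.988% ± 0.0868 (n = 2), where Fgfr3 held 57.7% ± 8.97 and Fgfr4 37.8% ± 5.84. TS lines shared the remainder between Fgfr2 at 27.1% ± 8.50 and Fgfr4 at 24.2% ± 5.63 (n = 3). The share of Fgfr4 is the least certain, since with the longest coding transcript as the length it was 6.74% in ES, 14.0% in TS and 27.2% in XEN lines, against 11.7%, 24.2% and 37.8%. By the lineage mean, Fgfr1 led in ES and TS lines and Fgfr3 in XEN lines with either length. In TS line F1 alone, the longest coding transcript put Fgfr2 first, at 45.5% against 40.7% for Fgfr1.

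**Figure D3:**
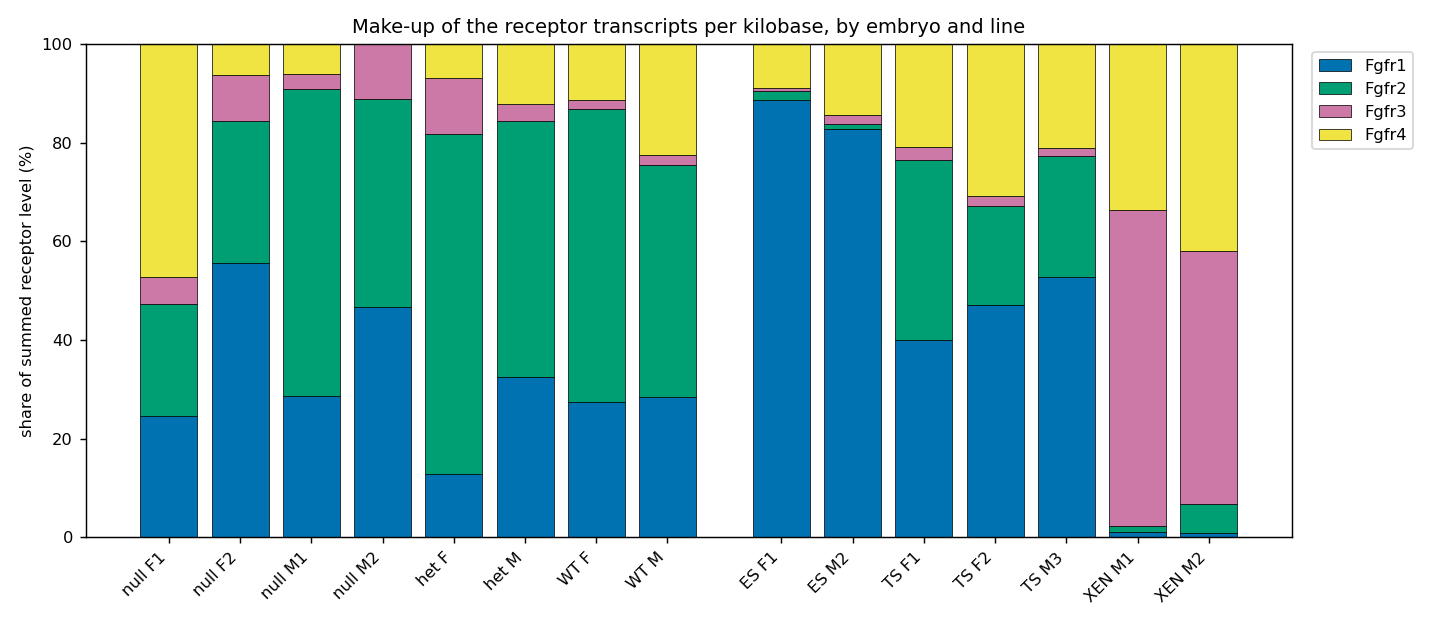
Share of each receptor in the summed receptor level per kilobase of exon, in percent, for each embryo (null, het for heterozygous, WT for wild type; F female, M male) and each line. Fgfr1 made up 82.7% and 88.7% in the 2 ES lines, Fgfr3 51.3% and 64.0% in the 2 XEN lines, and Fgfr2 led in both wild-type embryos at 47.1% and 59.4%.

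The other FGF ligand genes of the table, 18 in number, were examined next, of which 7 passed the filter on low counts in the lines. In each of the 3 line comparisons 2 of the 7 were called higher and 1 lower, beside 41.3%, 45.1% and 36.7% of all tested genes called. Fgf3, the neighbour of Fgf4 on chromosome 7, was at 3.56 and 1.32 CPM in ES lines F1 and M2, against 0.153, 0.222 and 0.227 CPM in TS lines F1, F2 and M3 and 54.6 and 13.8 CPM in XEN lines M1 and M2. Its log2 fold change was 3.54 for ES against TS (SE 0.75, edgeR adjusted p = 0.00922), -4.14 for ES against XEN (SE 0.77, edgeR adjusted p = 0.00450) and -7.67 for TS against XEN (SE 0.79, edgeR adjusted p = 0.000501). Fgf15, the neighbour on the other side, was at 2.01 and 0.846 CPM in ES lines and at 0.0266 and 0.0621 CPM in XEN lines (log2 fold change 4.58, SE 1.00, edgeR adjusted p = 0.00844). Fgf13, an intracellular member of the family, was higher in ES than in XEN lines (log2 fold change 7.04, SE 1.47, edgeR adjusted p = 0.00717). The remaining calls were of genes under 1 CPM on average in each lineage: Fgf1, higher in ES than in TS lines (4.37, SE 1.12, edgeR adjusted p = 0.0184), Fgf22, lower in ES than in TS lines (-3.47, SE 0.78, edgeR adjusted p = 0.0117) and higher in TS than in XEN lines (2.34, SE 0.65, edgeR adjusted p = 0.0273), and Fgf7, higher in TS than in XEN lines (3.52, SE 0.87, edgeR adjusted p = 0.0171). Values in brackets are log2 fold changes.

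Summed per kb over all 22 ligand genes, ligand transcripts were at 90.6 ± 0.737 CPM per kb in ES lines (SD, n = 2), against 1.66 ± 0.278 CPM per kb in TS lines (n = 3) and 17.3 ± 12.5 CPM per kb in XEN lines (n = 2). Fgf4 made up 93.1% ± 0.768 of the ES total. In XEN lines Fgf3 made up 80.0% ± 14.0 and Fgf10 14.4% ± 9.84 of the total. No ligand led clearly in TS lines, where Fgf18, at 19.9% ± 10.6, and Fgf22, at 17.1% ± 5.72, had the highest shares. The 22 genes include the intracellular members Fgf11, Fgf12, Fgf13 and Fgf14. Of these, Fgf13 made up as much as 16.5% and Fgf11 as much as 7.26% of the total in a TS line.

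Of the 8 co-receptors and receptor partners, 7 were tested in the lines. For ES against TS 2 were higher and 3 lower, for ES against XEN 1 was higher and 4 lower, and for TS against XEN 3 were higher and 3 lower, beside 41.3%, 45.1% and 36.7% of all tested genes called. Klb, which encodes the co-receptor of endocrine FGFs such as FGF15 and FGF21, was at 0.402 and 0.476 CPM in ES lines F1 and M2, against 0.0612, 0 and 0.0454 CPM in TS lines F1, F2 and M3 and 78.6 and 68.0 CPM in XEN lines M1 and M2. Flrt3, a transmembrane partner of FGF receptors, was at 5.91 and 8.62 CPM in ES lines, against 0.214, 0.577 and 0.272 CPM in TS lines and 313 and 275 CPM in XEN lines. Both were far higher in XEN lines than elsewhere. For Klb the log2 fold change was -7.70 for ES against XEN (SE 0.46, edgeR adjusted p = 5.05e-05), and for Flrt3 it was -5.68 (SE 0.37, edgeR adjusted p = 7.55e-05). TS against XEN gave -10.99 for Klb (SE 0.47, edgeR adjusted p = 1.98e-05) and -10.00 for Flrt3 (SE 0.39, edgeR adjusted p = 1.64e-05). Fgfbp1, a secreted protein that releases FGFs from the matrix, was at 32.3 and 14.6 CPM in ES lines, against 115, 59.8 and 44.4 CPM in TS lines and 0.345 and 0.249 CPM in XEN lines, and was higher than in XEN lines in both (log2 fold change 5.94, SE 0.67, edgeR adjusted p = 0.000571 for ES, and 7.63, SE 0.69, edgeR adjusted p = 0.000294 for TS). Kl, the co-receptor gene of FGF23, had 76, 18 and 7 counts in TS lines F1, F2 and M3 and 0 in every ES and XEN line, and it was lower in ES than in TS lines (edgeR adjusted p = 0.0267).

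**Figure D4:**
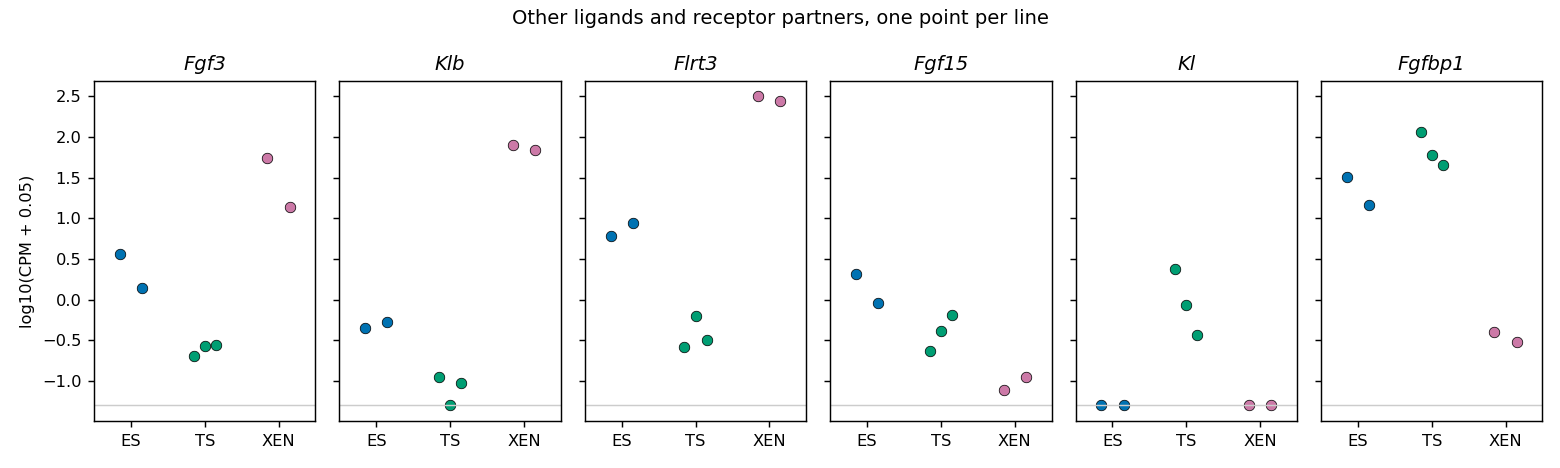
Level of further ligand genes (Fgf3 and Fgf15) and of receptor partners (Klb, Flrt3, Kl and Fgfbp1), as log10 of CPM plus 0.05, with 1 point per ES, TS or XEN line; the grey line marks 0 counts. Fgf3, Klb and Flrt3 were highest in both XEN lines, at 13.8 CPM or more, and Fgfbp1 was lowest there, at 0.345 and 0.249 CPM.

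Genes further along the pathway were counted next, beside shares of all tested genes called of 41.3% for ES against TS, 45.1% for ES against XEN and 36.7% for TS against XEN. Of 18 heparan sulfate proteoglycans and their enzymes, all tested, 3 were higher and 5 lower for ES against TS, 2 higher and 9 lower for ES against XEN, and 3 higher and 8 lower for TS against XEN. The heparan sulfate polymerase genes Ext1 and Ext2 were lower in ES than in XEN lines (log2 fold change -2.12, SE 0.26, edgeR adjusted p = 0.000811, and -1.49, SE 0.16, edgeR adjusted p = 0.000490), and Gpc3, a cell-surface proteoglycan gene, was higher in ES than in TS lines (4.35, SE 0.53, edgeR adjusted p = 0.00111). Differences of this list reached -6.64 for Gpc3 (SE 0.57, edgeR adjusted p = 0.000245) and -7.20 for Gpc6 (SE 0.75, edgeR adjusted p = 0.000518) in TS against XEN lines. Of 11 receptor adaptors, 1 was higher and 7 lower for ES against TS, 2 higher and 4 lower for ES against XEN, and 3 higher and 1 lower for TS against XEN. Ptpn11, which encodes the phosphatase SHP2, was lower in ES than in TS lines by 1.17 on the log2 scale (SE 0.21, edgeR adjusted p = 0.00457). Of 11 genes of the RAS and ERK cascade, 0 were higher and 2 lower for ES against TS, 0 higher and 1 lower for ES against XEN, and 1 higher and 3 lower for TS against XEN. Braf was lower in ES than in XEN lines (-1.57, SE 0.21, edgeR adjusted p = 0.00113). Of 9 feedback inhibitors, 1 was higher and 3 lower for ES against TS, 1 higher and 1 lower for ES against XEN, and 3 higher and 1 lower for TS against XEN. The ERK phosphatase gene Dusp4 was at 12.7 ± 2.26 CPM in ES lines (SD, n = 2), against 55.5 ± 24.3 CPM in TS lines (n = 3) and 51.5 ± 9.95 CPM in XEN lines (n = 2). Spred2, an inhibitor gene of RAS signalling, was lower in ES than in TS lines (log2 fold change -1.25, SE 0.22, edgeR adjusted p = 0.00424) and higher in TS than in XEN lines (1.41, SE 0.22, edgeR adjusted p = 0.00267), and the receptor inhibitor gene Spry2 was higher in ES than in TS lines (log2 fold change 1.42, SE 0.30, edgeR adjusted p = 0.00931). Medians of these 4 lists lay between -1.13 and 0.44, beside medians over all tested genes of -0.02, 0.05 and 0.02.

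Genes with the most similar profiles over the 7 lines were sought among all tested genes, for the 6 members with a mean of at least 1 CPM. By Pearson correlation of log2 CPM, Fgf4 was most like Tekt1 (r = 0.9997), Fgf10 most like Zc4h2 (0.994) and Kit (0.993), Fgfr1 most like Smad7 (0.9989), Fgfr2 most like Dusp18 (0.9963), Fgfr3 most like Zfp768 (0.9945) and Fgfr4 most like Rad51l3 (0.9928). The 7 points fall into 3 lineages, so these values describe a shared ranking of lineages.

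In embryos the question was whether ligands or receptors differed without Nanog. Of the 8 genes 6 were tested, and edgeR called none of them in any genotype comparison, in which 0% to 0.0154% of all tested genes were called. DESeq2 called Fgf4 against wild type alone. Fgf4 was nearly absent from null embryos, and Fgf10 was nearly absent from both female null embryos. Fgfr1 and Fgfr2 were detected in all 8 embryos. In whole embryos, fewer cells of a type and less RNA per cell cannot be told apart.

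Fgf4 had 1 count in null male M1 and 0 counts in the other null embryos, F1, F2 and M2, against 16 and 1 counts in the heterozygous female and male and 69 and 500 counts in the wild-type female and male. Every null embryo lay below every Nanog-bearing embryo, but the highest null and the lowest heterozygous embryo had a single count each, 0.0520 and 0.0677 CPM. Over all embryos the totals were 1 and 586 counts, 484-fold lower in null embryos after scaling for depth, with a 95% exact counting interval from 86.5 to 19141, which leaves out the spread between embryos. The interval also takes counts as independent, although embryo RNA was amplified as cDNA. The fitted log2 fold change against Nanog-bearing embryos was -6.82 (SE 2.24, edgeR adjusted p = 0.931) and against wild type -8.77 (SE 2.46, edgeR adjusted p = 1.00), both dependent on the prior count. Heterozygous against wild type gave -3.89 (SE 3.09, edgeR adjusted p = 1.00). With DESeq2 the comparison with wild type gave an adjusted p of 0.0352 and that with Nanog-bearing embryos 0.0882. Summed ES markers, among them Nanog itself, were at 698 to 1166 CPM in null embryos and 1187 to 1269 CPM in Nanog-bearing embryos, and summed XEN markers at 1125 to 1947 CPM in null embryos and 1465 to 2039 CPM in Nanog-bearing embryos. These sums were mostly Pou5f1 and Zfp42 for ES markers and mostly Dab2 for XEN markers, and other markers differed more. For null against Nanog-bearing the median log2 fold change was -1.11 over 7 tested ES markers, with 2 above 0. Over 5 tested XEN markers it was -1.43, with 1 above 0, and of both lists edgeR called only Nanog. Fibroblast markers summed to 0 to 6.25 CPM in null embryos and 0 to 0.339 CPM in Nanog-bearing embryos, with the collagen-binding Dcn at 42 counts in null F2, 67 in null M2 and 0 in the other 6 embryos. The part of these markers in the differences of Fgf4 and Fgf10 was not tested. Of the 586 counts, 500 came from the wild-type male, and leaving out 1 embryo at a time gave log2 fold changes from -8.35 to -5.0. Without null embryos F1 and M2, the libraries that lacked the most genes, the log2 fold change of Fgf4 was -6.11 (SE 2.60, edgeR adjusted p = 0.903).

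Fgf10 had 1 count in each null female, F1 and F2, and 397 and 115 counts in the null males M1 and M2, against 420 and 239 counts in the heterozygous and 593 and 671 counts in the wild-type female and male. In CPM these were 0.0610, 0.0457, 20.6 and 5.75 in null embryos, against 18.0 and 16.2 in heterozygous and 25.1 and 20.8 in wild-type embryos. Both null females were far below all other embryos, while null male M1 lay within the range of the Nanog-bearing embryos. The log2 fold change of null against Nanog-bearing embryos was -3.96 (SE 2.17, edgeR adjusted p = 0.931), and -1.73 without null embryos F1 and M2. Fitted by sex, a choice made after seeing the data, it was -8.46 in females (SE 1.37, edgeR adjusted p = 0.421) and -0.40 in males (SE 0.95, edgeR adjusted p = 0.996). The difference between the sexes was -8.06 (SE 1.59, unadjusted p = 0.000672, edgeR adjusted p = 1.00), and no gene was called for such a difference.

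Fgf5 and Fgf17 had 0 counts in all 8 embryos and were not tested. A count of 0 allows up to 3 counts, which is 0.0931 to 0.203 CPM in these libraries.

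Fgfr1 was at 46.1 (F1), 32.9 (F2), 42.3 (M1) and 45.5 (M2) CPM in null embryos, against 17.5 and 47.7 CPM in the heterozygous and 50.1 and 50.3 CPM in the wild-type female and male. Null embryos lay below wild-type embryos and overlapped with heterozygous ones (log2 fold change of null against Nanog-bearing 0.21, SE 0.40, edgeR adjusted p = 0.998). Fgfr2 was at 44.5, 17.8, 96.4 and 43.2 CPM in null embryos, against 98.0 and 79.7 CPM in heterozygous and 113 and 87.5 CPM in wild-type embryos. Null male M1 lay among the Nanog-bearing embryos and the other null embryos below them (-0.92, SE 0.46, edgeR adjusted p = 0.931).

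Fgfr3 was at 7.5 (F1), 4.06 (F2), 3.17 (M1) and 7.90 (M2) CPM in null embryos, against 11.3 and 3.72 CPM in the heterozygous and 2.41 and 2.67 CPM in the wild-type female and male. Null embryos lay above wild-type embryos and overlapped with heterozygous ones (log2 fold change against Nanog-bearing 0.55, SE 1.19, edgeR adjusted p = 0.998). Fgfr4 was at 31.8, 1.32, 3.22 and 0 CPM in null embryos, against 3.35 and 6.36 CPM in heterozygous and 7.49 and 14.3 CPM in wild-type embryos. Null embryos held both the highest and the lowest value (-0.36, SE 2.00, edgeR adjusted p = 1.00), and the sign turned in several alternatives.

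**Figure D5:**
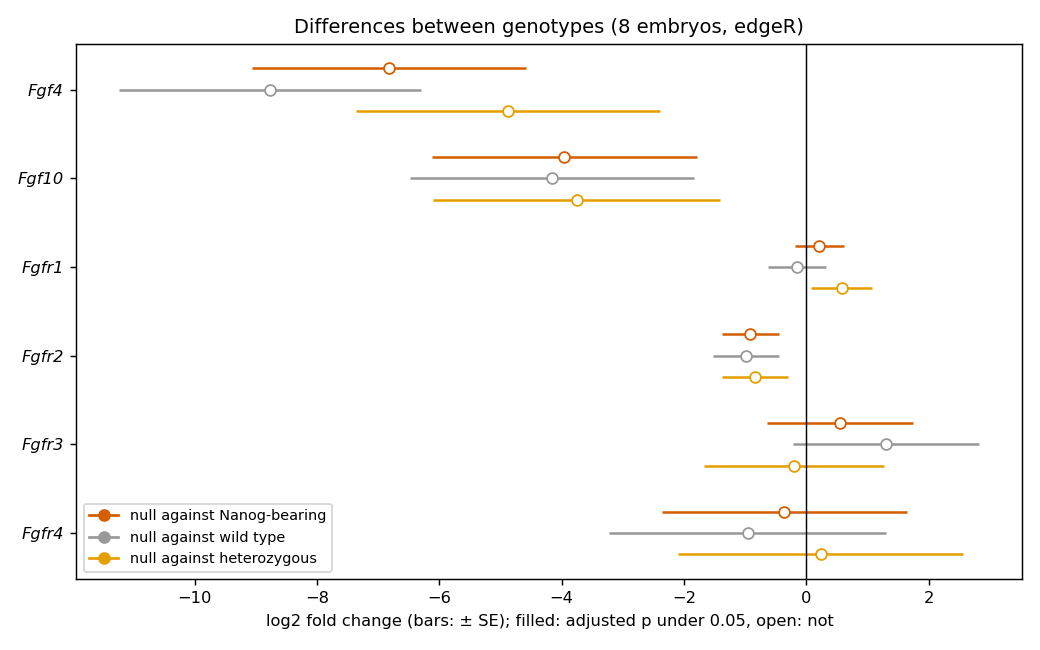
Log2 fold change of null embryos against Nanog-bearing, wild-type and heterozygous embryos for the 6 genes detected in embryos, with bars of 1 SE, from the edgeR fit of 8 embryos; open points had an adjusted p of 0.05 or more, and a negative value means lower in null embryos. All points are open, and Fgf4 lay lowest in each comparison, at -6.82, -8.77 and -4.88.

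Of the 6 tested genes, 0 were called for null against Nanog-bearing (0.0154% of 12965 tested genes called), 0 for null against wild type (0.0154%) and 0 for null against heterozygous (0.00771%). The number was also 0 for heterozygous against wild type, where 0% of tested genes were called. Over all genes 644, 500, 357 and 107 had an unadjusted p under 0.05 in these comparisons. The first 3 share the null embryos. Apart from Fgf4 against wild type, DESeq2 called no member either, and limma voom called none. The median log2 fold change of the 6 genes for null against Nanog-bearing was -0.64, beside -0.05 over all tested genes.

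With the union of exons as the length, Fgfr2 and Fgfr1 made up most of the receptor level per kb in 7 of 8 embryos. In the remaining one, null F1, Fgfr4 held 47.3%, Fgfr1 24.6% and Fgfr2 22.6%. With the longest coding transcript as the length, Fgfr4 in null F1 held 31.1%, below Fgfr2 at 33.5%. Of 24 mean receptor shares over embryo groups and lineages, 10 moved by their SD or more with that length. Fgfr2 held 39.0% ± 17.6 in null embryos (SD, n = 4), 60.3% ± 11.9 in heterozygous (n = 2) and 53.2% ± 8.64 in wild-type embryos (n = 2). Fgfr1 held 38.8% ± 14.7, 22.7% ± 13.9 and 27.9% ± 0.666 in the same groups, and Fgfr4 14.9% ± 21.8, 9.47% ± 3.70 and 16.9% ± 7.80. The summed receptor level was 6.0 to 19.0 CPM per kb in null embryos, 13.8 to 14.9 in heterozygous and 18.0 to 18.5 in wild-type embryos. Of the ligand level per kb, Fgf10 made up 46.2% ± 45.6 in null embryos, 90.2% ± 3.44 in heterozygous embryos and 64.0% ± 22.5 in wild-type embryos, where Fgf4 held 32.5% ± 27.0. The summed ligand level was 0.0874 to 4.70 CPM per kb in null embryos, and among the null females Fgf16 led in F1 at 84.8% and Fgf7 in F2 at 66.7%. The lowest total, 0.0874 CPM per kb, was that of F1, where Fgf10 had 1 count, so its shares rest on very few counts. Null F2 also held fibroblast markers, with Dcn at 42 counts, and their part in its Fgf7 share was not tested.

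None of the pathway lists held a called gene in embryos. The genes named here were picked by smallest unadjusted p within their lists. For null against Nanog-bearing the counts were 0 of 1 tested further ligand, 0 of 5 receptor partners, 0 of 14 heparan sulfate genes, 0 of 11 adaptors, 0 of 11 genes of the RAS and ERK cascade and 0 of 9 feedback inhibitors. Flrt3 had 1 count in null embryo F1, 4 in M2 and 0 in F2 and M1, against 499 and 146 counts in the heterozygous and 46 and 137 counts in the wild-type female and male. Its log2 fold change was -6.62 (SE 1.93, edgeR adjusted p = 0.931). Fgfbp1, the receptor partner of next smallest p, went the other way, at 1.14 (SE 0.57, edgeR adjusted p = 0.931). Glce, a heparan sulfate epimerase gene, was at 8.52 ± 7.33 CPM in null embryos (n = 4) and 37.3 ± 10.9 CPM in Nanog-bearing embryos (n = 4), with a log2 fold change of -2.40 (SE 0.65, edgeR adjusted p = 0.931). Dusp6, an ERK phosphatase gene induced by FGF signalling, was at 32.3 ± 14.9 CPM in null embryos (n = 4), 51.6 ± 23.1 CPM in heterozygous (n = 2) and 122 ± 23.8 CPM in wild-type embryos (n = 2), with -1.20 against Nanog-bearing embryos (SE 0.45, edgeR adjusted p = 0.931). Spry4, a receptor tyrosine kinase inhibitor gene, gave -5.56 (SE 2.57, edgeR adjusted p = 0.931). Feedback inhibitors had a median log2 fold change of -0.86 in this comparison, with 2 of 9 above 0.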

How the data were processed

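RNA-seq counts per gene symbol, whole numbers and not normalized, were deposited by the authors for 22 libraries. Per the submitters' processing notes, TopHat 1.3.1, edgeR and build mm9 were used. How reads were counted (program, annotation, strand) is not given in the sources used here. Another table deposited by the authors lists Nanog-regulated genes with a direction word, a unit of the kind other. Its 22 value columns were not used.

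The 8 embryos were fitted with edgeR 4.0.16 in R 4.3.3 (TMM, filterByExpr, robust quasi-likelihood test) with genotype and sex as terms. The counts of each line's 2 technical replicates were summed, and the 7 lines were fitted by lineage. P-values were adjusted by Benjamini-Hochberg over all 12965 or 14687 genes tested, with a threshold of 0.05. Standard errors (SE) follow from the fold change and the F statistic, as |log2 fold change| over the root of F. The scripts were tested on simulated data. The labels do not say how embryos or lines relate by litter, so p-values measure the spread between these samples. CPM per kb used exon lengths of GENCODE M21, not the authors' annotation. Genes outside the 8 were named from the called genes of smallest p, up to 3 per list and line comparison, or from the most similar profiles. In embryos, where no gene of the pathway lists was called, up to 2 genes per list were named by smallest unadjusted p. Technical replicate numbers did not pair the lines. Alternatives used RLE scaling, no filter, DESeq2 1.42.0, limma 3.58.1 voom, no sex term and left-out samples. The genes and lists were chosen with earlier results of these data known.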

Additional observations from a re-analysis of the deposited data

Results flagged for a closer look

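Of 30 groups of 4 to 10 libraries, 4 held a library far from the rest. The rule used flags about 5% of groups by chance where values are independent and normally spread. A single count among zeros always meets the rule, and libraries of 1 line are technical replicates. The 5% is therefore no measure for these flags. Fgfr4 was at 31.8 CPM (522 counts) in null embryo F1, against at most 3.22 CPM in the other null embryos. Fgfr2 was at 2.39 CPM (22 counts) in the second library of ES line F1, against at most 0.961 CPM in the other ES libraries. The remaining flags rest on 1 count each, with 0 in the rest of the group: Fgf4 at 0.0520 CPM in null embryo M1, and Fgf17 at 0.0422 CPM in the second library of XEN line M1.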

How the results depend on the processing

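Over all settings in which the gene passed the filter on low counts, the 330 fold changes of the 8 genes between lines kept their direction: 317 stayed on the same side of the threshold, 11 missed it and 2 passed it. With 1 line left out, the number of the 8 genes called was 5 to 8 for ES against TS, 6 to 8 for ES against XEN and 4 for TS against XEN, and genes called overall were 2429 to 6233, 3997 to 7646 and 3808 to 5798, with the fewest without an ES line. In embryos, called genes for null against Nanog-bearing, null against wild type and null against heterozygous were 50, 37 and 19 with no filter, 87, 96 and 77 with DESeq2 (1 of the 8 genes, Fgf4, against wild type), 0 in each with limma voom, 1, 1 and 0 without null embryos F1 and M2, and 1 to 2, 1 to 3 and 1 to 2 with 1 embryo left out. Without a sex term null against heterozygous gave 2. Heterozygous against wild type gave 4 with no filter and 76 with DESeq2.

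Of 336 embryo fold changes, 23 turned sign, none of them called, and the cause was not tested. With 1 embryo left out, log2 fold changes of the turned genes ran from -0.052 to 0.54 (Fgfr1) and -2.23 to 0.71 (Fgfr4) for null against Nanog-bearing, -0.42 to 0.15 (Fgfr1) and -2.80 to 0.77 (Fgfr4) for null against wild type, -0.96 to 0.84 (Fgfr3) and -1.66 to 1.85 (Fgfr4) for null against heterozygous, and -5.44 to 4.64 (Fgf10), -0.79 to 0.44 (Fgfr2) and -3.39 to 1.12 (Fgfr4) for heterozygous against wild type. Without null embryos F1 and M2, Fgfr3 gave -0.18 against Nanog-bearing and Fgfr4 -1.10 against heterozygous embryos. Fgfr4 gave 0.40 against Nanog-bearing embryos with no sex term and -0.76 against heterozygous embryos with limma voom.

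With the 14 line libraries kept apart and the technical replicate number as a replicate block, 7 of the 8 genes were called for ES against TS, 6 for ES against XEN and 4 for TS against XEN, and as many without the block; Fgf5 was below the filter in these fits and was not tested. Over 21 pairs of lines, deviations of same-numbered libraries correlated at -0.34 to 0.14, with 2 pairs over 0.1, so the numbers do not pair the lines. Without the TS library richest in fibroblast markers, chosen after seeing the data, 8, 7 and 4 genes were called. Depth limits Fgf5 and Fgf17, and Fgf4 outside ES lines, which rest on few counts.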
